A study of Mus musculus with 20 samples.

Results

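The genes described here write, remove or modulate DNA methylation, or in the case of Asxl1 regulate chromatin. They are the methyltransferases Dnmt1, Dnmt3a and Dnmt3b, the dioxygenases Tet1, Tet2 and Tet3, the isocitrate dehydrogenases Idh1 and Idh2, and Asxl1. They were chosen by symbol and not by their measured values, although earlier results of these data were known. All 9 were present among the 49568 gene symbols of the deposited counts. RNA was sequenced from multipotent progenitors (MPP) and long-term haematopoietic stem cells (LT-HSC) sorted by flow cytometry from bone marrow of untreated mice aged 8 to 12 weeks. There were 5 libraries each of Ahr-KO MPP, WT MPP, Ahr-KO LT-HSC and WT LT-HSC. WT mice were C57BL/6, and Ahr-KO mice lack the aryl hydrocarbon receptor, a ligand-activated transcription factor, by label. The sources used here do not give the allele, the sort markers, any pooling of animals or any batch. Since no label says that the libraries came from separate animals, a p-value measures only the spread between these libraries.

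A methyl group on the cytosine of a CG pair is copied to the new DNA strand after replication by DNMT1, while DNMT3A and DNMT3B can methylate sites that carried none. TET enzymes oxidise the methyl group, the first step of its removal, and need 2-oxoglutarate, which IDH1 makes in the cytosol and IDH2 in mitochondria. ASXL1 works with Polycomb proteins on histone H2A rather than on DNA. In human blood, mutations of DNMT3A, TET2, ASXL1, IDH1 and IDH2 are well known from clonal haematopoiesis and myeloid leukaemia. In mice, loss of Dnmt3a or Tet2 expands the stem cell pool. RNA levels were measured here, and neither enzyme activity nor methylation itself.

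The promoters of Idh2, Tet2 and Tet1 are shown because the calls below concern these genes. Each window holds 300 bases, from 250 before to 50 after a transcription start of RefSeq on GRCm38.p6, 5′ to 3′ on the strand of the gene, and capitals mark the CG pairs that DNA methyltransferases can act on. The RefSeq starts lie inside the GENCODE genes whose positions are given below, and that of Tet1 lies far downstream of the outer start of its GENCODE gene.
Idh2, chr7:80115301-80115600, minus strand: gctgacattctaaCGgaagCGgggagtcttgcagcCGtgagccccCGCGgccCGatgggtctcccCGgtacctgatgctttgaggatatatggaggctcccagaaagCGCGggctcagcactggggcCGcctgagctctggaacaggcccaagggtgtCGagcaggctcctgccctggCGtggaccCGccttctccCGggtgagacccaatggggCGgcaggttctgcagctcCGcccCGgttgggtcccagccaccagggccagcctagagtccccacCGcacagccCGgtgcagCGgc
Tet2, chr3:133544341-133544640, minus strand: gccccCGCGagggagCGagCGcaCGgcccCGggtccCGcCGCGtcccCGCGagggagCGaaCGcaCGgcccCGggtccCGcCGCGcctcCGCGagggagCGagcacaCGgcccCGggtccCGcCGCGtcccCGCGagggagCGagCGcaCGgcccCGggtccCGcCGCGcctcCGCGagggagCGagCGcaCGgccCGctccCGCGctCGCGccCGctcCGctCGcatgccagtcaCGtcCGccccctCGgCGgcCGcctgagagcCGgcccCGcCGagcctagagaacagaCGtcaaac
Tet1, chr10:62887275-62887574, minus strand: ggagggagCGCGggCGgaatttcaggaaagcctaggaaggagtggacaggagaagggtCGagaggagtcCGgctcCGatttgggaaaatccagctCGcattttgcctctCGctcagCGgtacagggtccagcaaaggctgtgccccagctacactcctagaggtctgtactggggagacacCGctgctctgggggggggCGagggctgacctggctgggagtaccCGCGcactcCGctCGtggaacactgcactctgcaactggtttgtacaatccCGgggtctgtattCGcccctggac
The Tet2 window holds 57 CG pairs, more than 99.8% of the 32817 promoter windows in the RefSeq table. Idh2 has 20 CG pairs and Tet1 has 17, against a median of 7 over all windows. The core motif GCGTG, to which AHR is known to bind with its partner ARNT, was searched on both strands. It occurs in 5 of the 14 windows of the 9 genes, or 35.7%, against 32.4% of all windows, and the 5 belong to Asxl1, Dnmt1, Idh1 and Idh2. The longer form TNGCGTG, which contains GCGTG, is present in 5.06% of all windows and, among the 9 genes, in Idh2 alone, where GCGTG begins 73 bases before the start. These matches are descriptions of letters in a window.

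Total counts were 13712668 to 21622653 per library, and the lowest count of any of the 9 genes in a library was 217. Levels are CPM, a gene's counts scaled to the library total, with totals adjusted by the TMM method. All 12 LT-HSC marker genes were lower and at least 9 of 10 MPP marker genes were higher in MPP than in LT-HSC of either genotype, so the sort labels fit the markers. Transcripts of Ahr (chromosome 12, 35497974 to 35535038) were present in every library. Their mean was 15.9 ± 3.91 CPM in Ahr-KO MPP and 9.81 ± 3.66 CPM in WT MPP. In LT-HSC it was 23.6 ± 4.14 CPM for Ahr-KO and 26.5 ± 6.35 CPM for WT (SD, n = 5 each). Counts per gene therefore do not check the knockout label, and the directions below are those between libraries as labelled. Libraries stood apart in LT-HSC. WT LT-HSC 1 had few reads of long genes, as described with its values below, and a mitochondrial share of 0.386%, where no other LT-HSC library was under 1.07%. In Ahr-KO LT-HSC 2 and 3 the summed level of 10 neutrophil markers was 969 and 1473 CPM, with 7.13 to 93.6 CPM among the 8 remaining libraries of LT-HSC.

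The 9 genes differed in level by far more than the groups did. Per kilobase of exon, Idh2 was the highest, at 159 ± 8.84 CPM in Ahr-KO MPP, 159 ± 19.96 in WT MPP, 116 ± 7.20 in Ahr-KO LT-HSC and 115 ± 10.2 in WT LT-HSC (CPM per kb of exon, SD, n = 5 each). Dnmt1 followed, at 76.0 ± 17.1, 82.0 ± 14.5, 77.2 ± 3.60 and 69.2 ± 24.5 CPM per kb in the same groups. In every group all Idh2 values lay above all Dnmt1 values. Idh1, at group means of 25.2 to 32.9 CPM per kb, and Dnmt3b, at 21.2 to 27.8, overlapped in each group. Asxl1 came next with group means of 11.7 to 14.1 CPM per kb and Dnmt3a after it with 6.87 to 7.87. The Tet genes were lowest, with group means of 1.36 to 3.51 CPM per kb. The steps from Dnmt1 to the Idh1 and Dnmt3b pair, from that pair to Asxl1, from Asxl1 to Dnmt3a and from Dnmt3a to the Tet genes showed no overlap within Ahr-KO MPP, WT MPP or Ahr-KO LT-HSC, and overlapped in WT LT-HSC, where library 1 was low. The step from Asxl1 to Dnmt3a rests on the length used. Dnmt3a has 16642 bases of exon but 9685 in its longest coding transcript, and Asxl1 has 7444 and 6981. Per kb of the longest coding transcript, Asxl1 and Dnmt3a overlapped within Ahr-KO MPP, WT MPP and Ahr-KO LT-HSC. Tet1, Tet3 and Tet2 overlapped one another in both MPP groups, while in Ahr-KO LT-HSC all 5 Tet2 values, 0.815 to 1.81 CPM per kb, lay below those of Tet1 and Tet3. In WT LT-HSC the 3 genes overlapped through library 1, and in the other 4 libraries Tet1, at 3.38 to 5.004 CPM per kb, lay above Tet3, at 2.29 to 3.05, and Tet3 above Tet2, at 1.70 to 2.23. These orders of the Tet genes also rest on the length used. Tet2 has 16870 bases of exon but 9179 in its longest coding transcript. Per kb of the longest coding transcript, the 3 genes overlapped in Ahr-KO LT-HSC and in those 4 WT LT-HSC libraries.

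**Figure D1:**
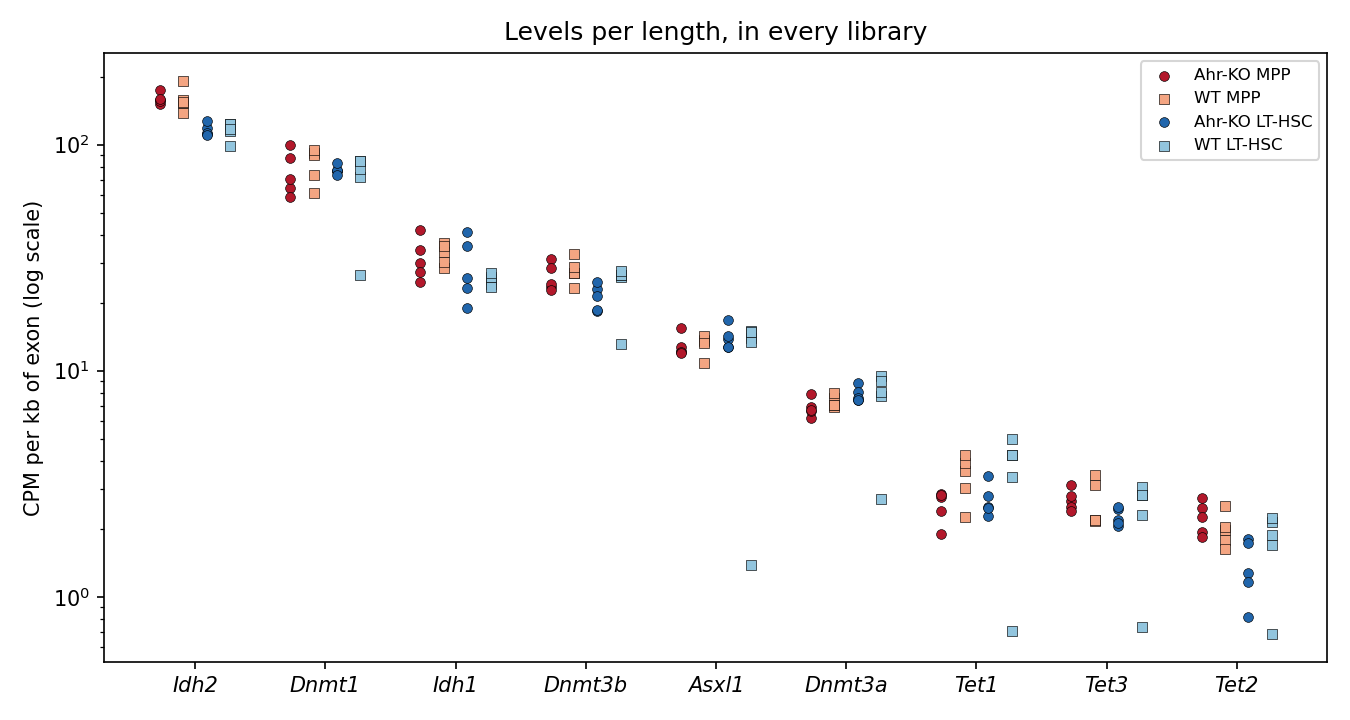
CPM per kb of exon on a log axis (y) for each of the 9 genes (x), with 1 point per library, coloured by group. Idh2 and Dnmt1 lie above the rest and the 3 Tet genes at the bottom, and the low WT LT-HSC point in 7 of the genes is library 1.

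Within families, Dnmt1 gave 69.4 ± 4.44% of the summed Dnmt level per kb in Ahr-KO MPP, 69.7 ± 4.83% in WT MPP, 72.7 ± 1.78% in Ahr-KO LT-HSC and 68.0 ± 3.23% in WT LT-HSC (SD, n = 5 each). Idh2 gave 80.2 to 83.5% of the summed Idh level per kb as a group mean. The Tet family was more evenly divided. Tet1 held 33.9 ± 4.81% of the summed Tet level per kb in Ahr-KO MPP and 42.0 ± 5.89% in WT MPP, and 42.5 ± 1.83% in Ahr-KO LT-HSC and 44.2 ± 6.62% in WT LT-HSC. Tet2 held 30.1 ± 5.23% in Ahr-KO MPP and 25.2 ± 5.67% in WT MPP, and 21.3 ± 4.57% in Ahr-KO LT-HSC and 24.4 ± 5.59% in WT LT-HSC. These shares depend on the length assigned to each gene: per kb of the longest coding transcript, Tet1 held 24.9% and Tet2 37.5% in Ahr-KO MPP, so the order within the Tet family changes with the length used.

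**Figure D2:**
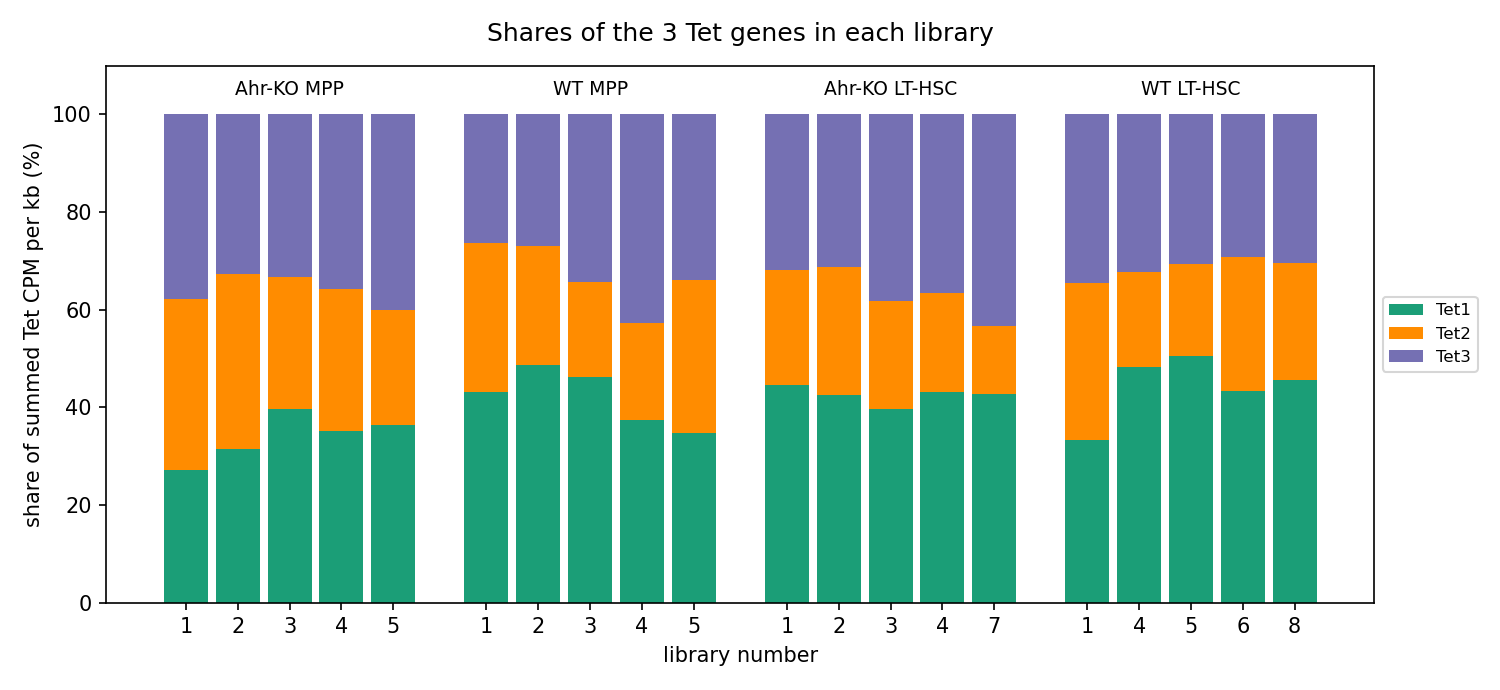
Share of Tet1, Tet2 and Tet3 in their summed CPM per kb of exon (y, percent) in each library (x), by group. The Tet2 share is 23.6 to 35.7% in Ahr-KO MPP and 14.1 to 26.3% in Ahr-KO LT-HSC, with overlapping ranges.

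MPP were compared with LT-HSC within each genotype. Idh2 was higher in MPP of both genotypes, and it was called in Ahr-KO and in WT alike. Tet2 was also called higher in MPP among Ahr-KO libraries, where LT-HSC had less of it. In sorted bulk samples, fewer cells with a transcript and less of it per cell cannot be told apart. None of the other 7 genes passed the test in either genotype. Calls were made at adjusted p under 0.05, and the background was high: 23.2% of the genes tested were called in Ahr-KO and 22.3% in WT. Higher levels in MPP were called for 12.5% of genes in Ahr-KO and 11.0% in WT. The counts were 2 of 9 genes in Ahr-KO and 1 of 9 in WT, all higher, so the counts over both directions were near the background. Groups did not overlap for 2 of the 9 genes in Ahr-KO (Tet2 and Idh2) and 2 in WT (Idh1 and Idh2), against 21.6% and 16.4% of all genes tested.

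Idh2 (chromosome 7, 80094846 to 80115392, minus strand), the mitochondrial NADP-dependent isocitrate dehydrogenase, had 406, 390, 451, 405 and 410 CPM in the Ahr-KO MPP libraries, against 305, 287, 290, 330 and 285 CPM in the Ahr-KO LT-HSC libraries. In WT it had 496, 409, 396, 356 and 400 CPM in MPP, against 255, 297, 320, 319 and 303 CPM in LT-HSC. All MPP libraries lay above all LT-HSC libraries in each genotype, and the lowest LT-HSC value was that of WT LT-HSC 1. The log2 fold change was 0.46 ± 0.09 in Ahr-KO (SE, edgeR, adjusted p = 0.000539) and 0.46 ± 0.09 in WT (adjusted p = 0.00059). Without WT LT-HSC 1 the WT value was 0.41 ± 0.08 (adjusted p = 0.000608). Markers of dividing cells moved in the same comparison: 16 of 20 genes of G2 and mitosis were called higher in MPP in Ahr-KO and 18 of 20 in WT, and their part in the Idh2 difference was not tested. Summed markers of several other cell types were also higher in MPP. Neutrophil markers had a median of 507.6 CPM in MPP against 18.6 CPM in LT-HSC of Ahr-KO, and 513 CPM in MPP against 28.1 CPM in LT-HSC of WT. Monocyte and macrophage markers had 256.5 CPM in MPP against 64.7 CPM in LT-HSC of Ahr-KO, and 199 CPM in MPP against 52.0 CPM in LT-HSC of WT. T and NK cell markers had 362 CPM in MPP against 91.0 CPM in LT-HSC of Ahr-KO, and 346 CPM in MPP against 71.1 CPM in LT-HSC of WT. B cell markers had 160.7 CPM in MPP against 60.8 CPM in LT-HSC of Ahr-KO, and 86.5 CPM against 43.7 CPM in WT. Erythroid markers had 569 CPM in MPP against 383 CPM in LT-HSC of Ahr-KO, but 471 CPM against 462 CPM in WT. Stromal and endothelial markers had 141.8 CPM in MPP against 140.3 CPM in LT-HSC of Ahr-KO, and 141.7 CPM against 118 CPM in WT. The part of all these markers in the Idh2 and Tet2 differences was not tested.

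Tet2 (chromosome 3, 133463679 to 133545139, minus strand), the dioxygenase whose loss is best known in blood stem cells, had 41.4, 46.0, 32.7, 38.1 and 30.9 CPM in Ahr-KO MPP, against 30.5, 29.0, 21.5, 19.7 and 13.8 CPM in Ahr-KO LT-HSC. In WT it had 42.7, 33.1, 30.0, 27.3 and 34.3 CPM in MPP, against 11.5, 28.7, 31.5, 36.1 and 37.6 CPM in LT-HSC. The Ahr-KO groups did not overlap, though the lowest MPP library and the highest LT-HSC library were close, and the WT groups overlapped. The log2 fold change was 0.72 ± 0.25 in Ahr-KO (SE, edgeR, adjusted p = 0.0448) and 0.20 ± 0.25 in WT (adjusted p = 0.634). The Ahr-KO call was lost in 11 of 20 alternatives, with log2 fold changes of 0.55 to 0.90 over the 20. Among them was leaving out any 1 Ahr-KO MPP library or Ahr-KO LT-HSC 3, 4 or 7 (adjusted p 0.0531 to 0.15). The difference between the genotypes was tested and did not pass, at 0.52 ± 0.36 (adjusted p = 0.866), nor without WT LT-HSC 1, at 0.72 ± 0.26 (adjusted p = 0.426).

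Idh1 (chromosome 1, 65158616 to 65186500, minus strand), the cytosolic isocitrate dehydrogenase, had 83.0, 116, 95.0, 68.5 and 76.1 CPM in Ahr-KO MPP, against 71.6, 114, 98.4, 64.3 and 52.4 CPM in Ahr-KO LT-HSC. In WT it had 102, 93.2, 79.1, 98.6 and 83.5 CPM in MPP, against 70.4, 67.1, 71.7, 74.7 and 65.0 CPM in LT-HSC. The WT groups did not overlap and the Ahr-KO groups did, with Ahr-KO LT-HSC 2 and 3 the highest of all LT-HSC libraries. The log2 fold change was 0.13 ± 0.17 in Ahr-KO (SE, edgeR, adjusted p = 0.645) and 0.39 ± 0.17 in WT (adjusted p = 0.121), so neither passed. The 2 high libraries are those with neutrophil markers at 969 and 1473 CPM, and monocyte and macrophage markers summed to 258 and 268 CPM there, with a range of 28.4 to 64.7 CPM over the remaining LT-HSC. Other lineages stood out in them too: erythroid markers summed to 2594 and 3089 CPM, above the remaining LT-HSC at 130 to 1916 CPM, and stromal and endothelial markers to 188 and 4171 CPM, above 99.0 to 171 CPM. Without libraries 2 and 3 Idh1 was called higher in Ahr-KO MPP (log2 fold change 0.45, adjusted p = 0.0436), and in WT it was called when only the 10 WT libraries were fitted (0.36, adjusted p = 0.036). The part of these markers in the Idh1 level was not tested.

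The methyltransferases did not pass in either genotype. Dnmt1 (chromosome 9, 20907209 to 20959888, minus strand), the maintenance enzyme, had 474, 433, 643, 517 and 737 CPM in Ahr-KO MPP and 563, 561, 571, 612 and 539 CPM in Ahr-KO LT-HSC. In WT it had 674, 663, 699, 542 and 449 CPM in MPP and 195, 532, 626, 576 and 626 CPM in LT-HSC. The groups overlapped, with log2 fold changes of -0.02 ± 0.22 in Ahr-KO (SE, edgeR, adjusted p = 0.963) and 0.24 ± 0.23 in WT (adjusted p = 0.494). The MPP libraries spread more widely than the Ahr-KO LT-HSC libraries.

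Dnmt3a (chromosome 12, 3806007 to 3914443, plus strand), a de novo methyltransferase, had 115, 103, 111, 112 and 132 CPM in Ahr-KO MPP and 146, 124, 134, 126 and 124 CPM in Ahr-KO LT-HSC. In WT it had 115, 126, 117, 133 and 118 CPM in MPP and 45.2, 129, 157, 149 and 133 CPM in LT-HSC. The log2 fold change was -0.20 ± 0.20 in Ahr-KO (SE, edgeR, adjusted p = 0.549) and -0.01 ± 0.20 in WT (adjusted p = 0.976). Without WT LT-HSC 1, Dnmt3a was called lower in WT MPP (-0.22 ± 0.08, adjusted p = 0.0459), in a comparison that called 29.9% of all genes tested, 14.7% as lower. The groups still overlapped, where those of 28.3% of genes did not. Correcting each library for exon length as well turned the value to 0.03 (adjusted p = 0.778).

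Dnmt3b (chromosome 2, 153649450 to 153687730, plus strand), the other de novo methyltransferase, had 119, 123, 116, 160 and 145 CPM in Ahr-KO MPP and 118, 93.5, 94.9, 126 and 109 CPM in Ahr-KO LT-HSC. In WT it had 168, 138, 118, 138 and 147 CPM in MPP and 67.0, 133, 135, 135 and 142 CPM in LT-HSC. The log2 fold change was 0.29 ± 0.16 in Ahr-KO (SE, edgeR, adjusted p = 0.218) and 0.21 ± 0.16 in WT (adjusted p = 0.397), with overlapping groups. With limma voom it was called higher in Ahr-KO MPP (0.30, adjusted p = 0.0378).

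Tet3 and Asxl1 did not pass either. Tet3 (chromosome 6, 83362373 to 83459084, minus strand), a dioxygenase best known from the mouse zygote, had 40.0 to 52.0 CPM in Ahr-KO MPP and 34.3 to 41.8 CPM in Ahr-KO LT-HSC, and 36.1 to 58.0 CPM in WT MPP and 12.2 to 50.9 CPM in WT LT-HSC. Asxl1 (chromosome 2, 153345829 to 153404007, plus strand), a partner of the deubiquitinase BAP1, had 89.5 to 115 CPM in Ahr-KO MPP and 94.9 to 125 CPM in Ahr-KO LT-HSC, and 80.4 to 106 CPM in WT MPP and 10.3 to 112 CPM in WT LT-HSC. Their log2 fold changes were 0.25 ± 0.25 and -0.13 ± 0.35 in Ahr-KO, and 0.16 ± 0.25 and 0.16 ± 0.35 in WT. With the exon length correction Tet3 was called higher in Ahr-KO MPP (0.40, adjusted p = 0.0365).

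**Figure D3:**
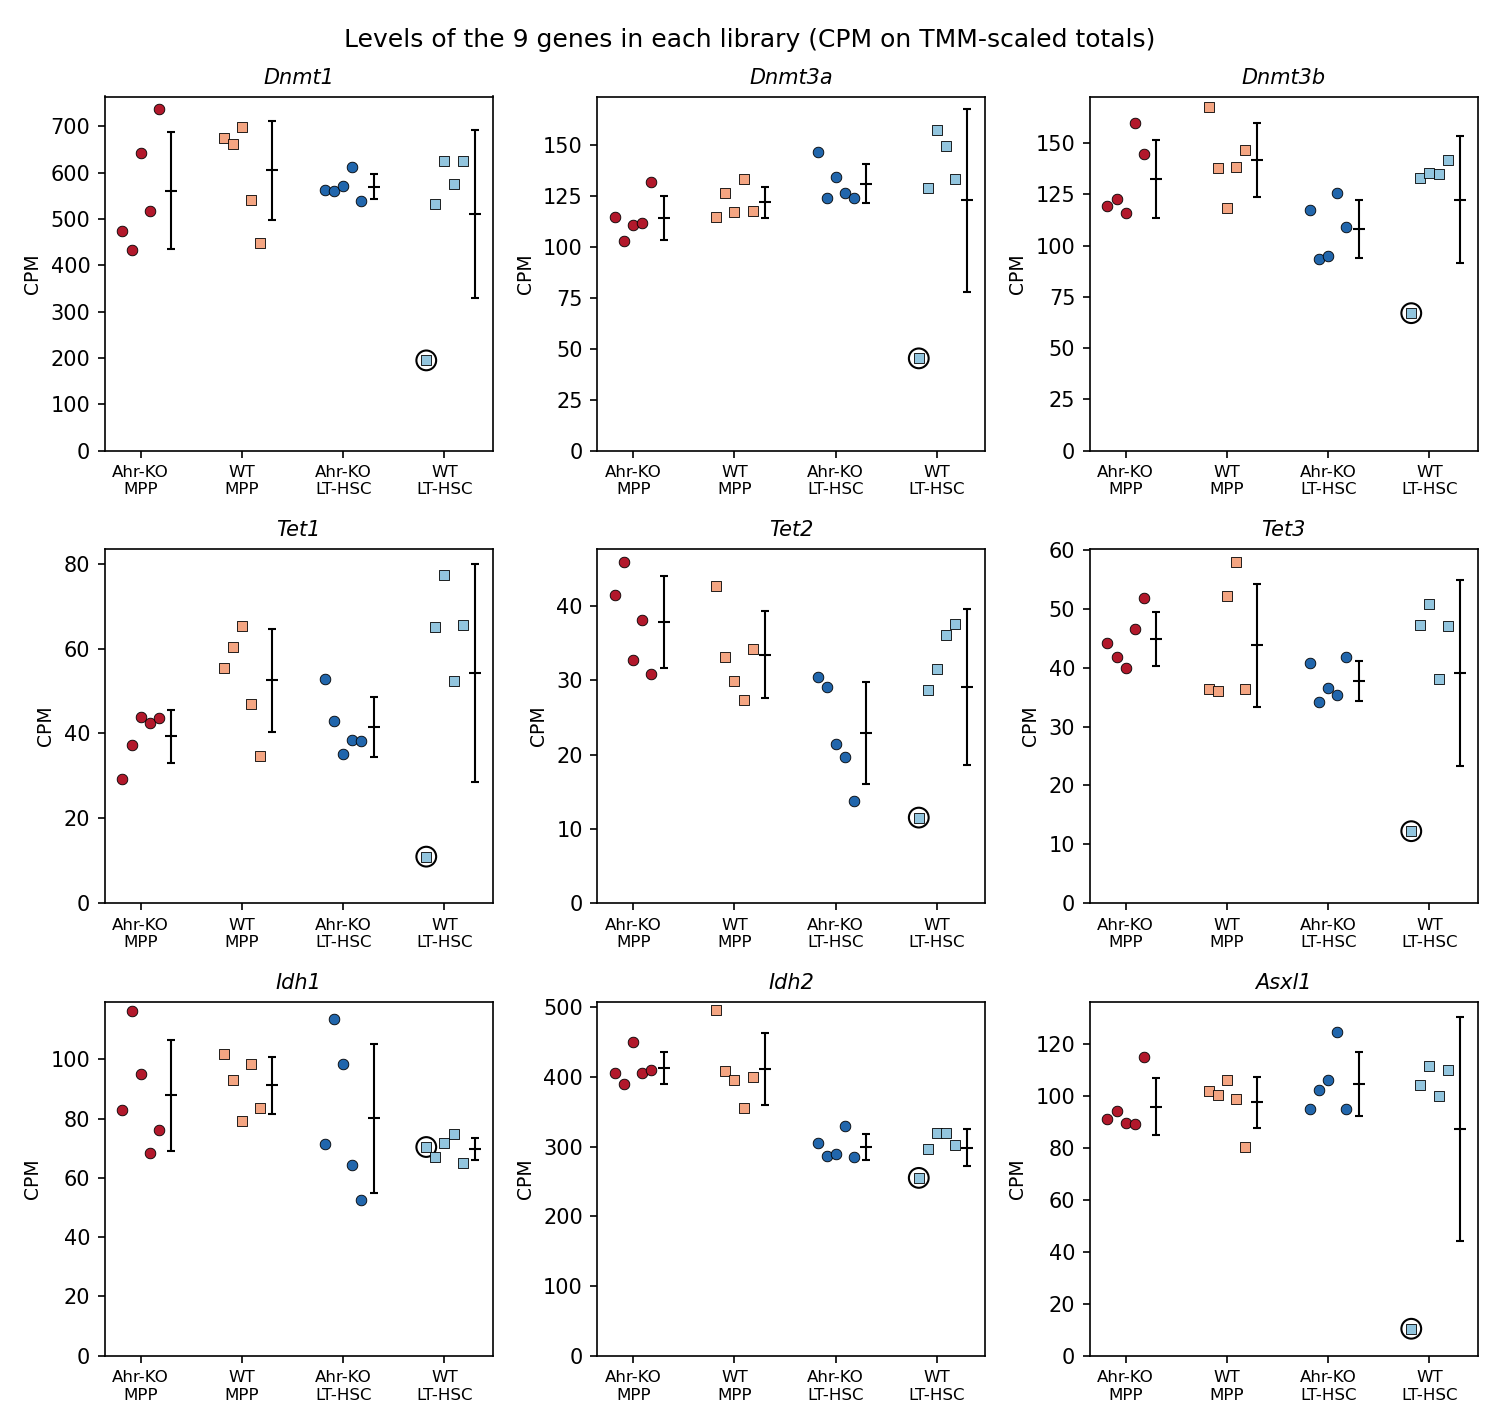
CPM (y, from 0) of each of the 9 genes in each library, by group (x), with the mean and SD of the 5 libraries as a black bar and WT LT-HSC 1 ringed. For Idh2 all MPP points (356 to 496 CPM) lie above all LT-HSC points (255 to 330 CPM), and the ringed library is low for every gene but Idh1.

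Within each population Ahr-KO was set against WT, which asks whether genes of this pathway are among those that differ with the loss of AHR. None of the 9 genes was called in MPP or in LT-HSC, and Ahr-KO and WT libraries overlapped for each of them, where groups did not overlap for 1.17% of genes in MPP and 3.64% in LT-HSC. DESeq2 and limma voom called none of the 9 either, though in LT-HSC voom gave adjusted p of 0.0677 for Dnmt3b and 0.0843 for Tet1. The background with edgeR was low: 0.0311% of genes tested were called in MPP, or 5 genes, and 0.00622% in LT-HSC, or 1 gene. The shares of all genes that DESeq2 and voom called are not reported here. At an unadjusted p under 0.05, 1 of the 9 genes (Tet1, in MPP) passed in MPP and 0 in LT-HSC, against 6.62% and 8.85% of genes tested. The median log2 fold change of the 9 genes was -0.05 in MPP and 0.02 in LT-HSC, beside 0.00 over all genes tested in each. Without WT LT-HSC 1 the LT-HSC median of the 9 genes was -0.10, beside 0.02 over all genes, so its sign turned on that library.

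Tet1 (chromosome 10, 62804570 to 62908996, minus strand), the founding member of its family, had 29.3, 37.2, 44.0, 42.5 and 43.6 CPM in Ahr-KO MPP, against 55.5, 60.4, 65.4, 46.9 and 34.6 CPM in WT MPP. In LT-HSC it had 52.9, 43.0, 35.1, 38.5 and 38.1 CPM in Ahr-KO, against 10.9, 65.2, 77.3, 52.3 and 65.6 CPM in WT. In MPP 4 WT libraries lay above all Ahr-KO libraries and WT MPP 5 lay among them. In LT-HSC 3 WT libraries lay above all Ahr-KO libraries, WT LT-HSC 6 was close to the highest of them, and WT LT-HSC 1 was below them all. The log2 fold change was -0.42 ± 0.17 in MPP (SE, edgeR, unadjusted p = 0.0274, adjusted p = 0.672) and -0.37 ± 0.39 in LT-HSC (adjusted p = 0.836). In the same MPP libraries the summed level of the 20 genes of G2 and mitosis was 3011 to 3766 CPM in Ahr-KO and 3544 to 5195 CPM in WT, with 0 called and 17 at an unadjusted p under 0.05, and their part in the Tet1 value was not tested. With each library corrected for exon length the Tet1 value in MPP was -0.33 (edgeR, adjusted p = 0.685). Without WT LT-HSC 1 the Tet1 value was -0.63 ± 0.13 in LT-HSC (adjusted p = 0.0439), which passed, in a comparison that called 203 genes, 1.24% of those tested, 0.814% as lower. The groups still overlapped there, as Ahr-KO LT-HSC 1 at 52.9 CPM lay above WT LT-HSC 6 at 52.3 CPM. With a correction of each library for exon length the value without WT LT-HSC 1 was -0.46 and the call was lost (adjusted p = 0.108).

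The other Tet genes and Dnmt3b also had lower values in Ahr-KO LT-HSC once WT LT-HSC 1 was left out, and none of them passed. Dnmt3b then had -0.32 ± 0.08 (SE, edgeR, adjusted p = 0.0774), with all 5 Ahr-KO libraries, 93.5 to 126 CPM, below the 4 WT libraries, 133 to 142 CPM. Groups did not overlap for 8.76% of genes tested in that comparison, with Ahr-KO below for 4.20%. Tet2 had -0.53 ± 0.20 (adjusted p = 0.185) and Tet3 -0.27 ± 0.10 (adjusted p = 0.183). The correlation of each library's deviations with exon length (Spearman, across 16883 genes, a description) was -0.16 to -0.03 in the Ahr-KO LT-HSC libraries and 0.13 to 0.26 in the WT LT-HSC libraries other than library 1, so long genes as a whole read lower in Ahr-KO there. With the exon length correction, and without WT LT-HSC 1, the values were -0.09 for Tet3 (adjusted p = 0.718), -0.36 for Tet2 (adjusted p = 0.415) and -0.27 for Dnmt3b (adjusted p = 0.154). The exon length of the Tet genes is 15457 to 16870 bases.

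Idh1 and Idh2 did not differ in a way that passed. Idh2 had a log2 fold change of 0.00 ± 0.09 in MPP and 0.02 ± 0.08 in LT-HSC, with the smallest SE of the 9 genes in LT-HSC. Idh1 had -0.05 ± 0.14 in MPP and 0.22 ± 0.19 in LT-HSC, and the LT-HSC value turned to -0.15 without Ahr-KO LT-HSC 2 and 3. Dnmt1, Dnmt3a and Asxl1 had -0.11 ± 0.15, -0.09 ± 0.08 and -0.03 ± 0.10 in MPP. In LT-HSC they had 0.17 ± 0.26, 0.11 ± 0.27 and 0.28 ± 0.46, and these turned to -0.04 ± 0.06, -0.10 ± 0.08 and -0.01 ± 0.08 without WT LT-HSC 1. The Ahr-KO effect was also compared between the populations, MPP minus LT-HSC, and 0 of the 9 genes and 0 of 17416 genes tested passed with edgeR, while 6.46% of genes had an unadjusted p under 0.05. DESeq2 called 51 genes and limma voom 17, and neither called any of the 9 genes.

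**Figure D4:**
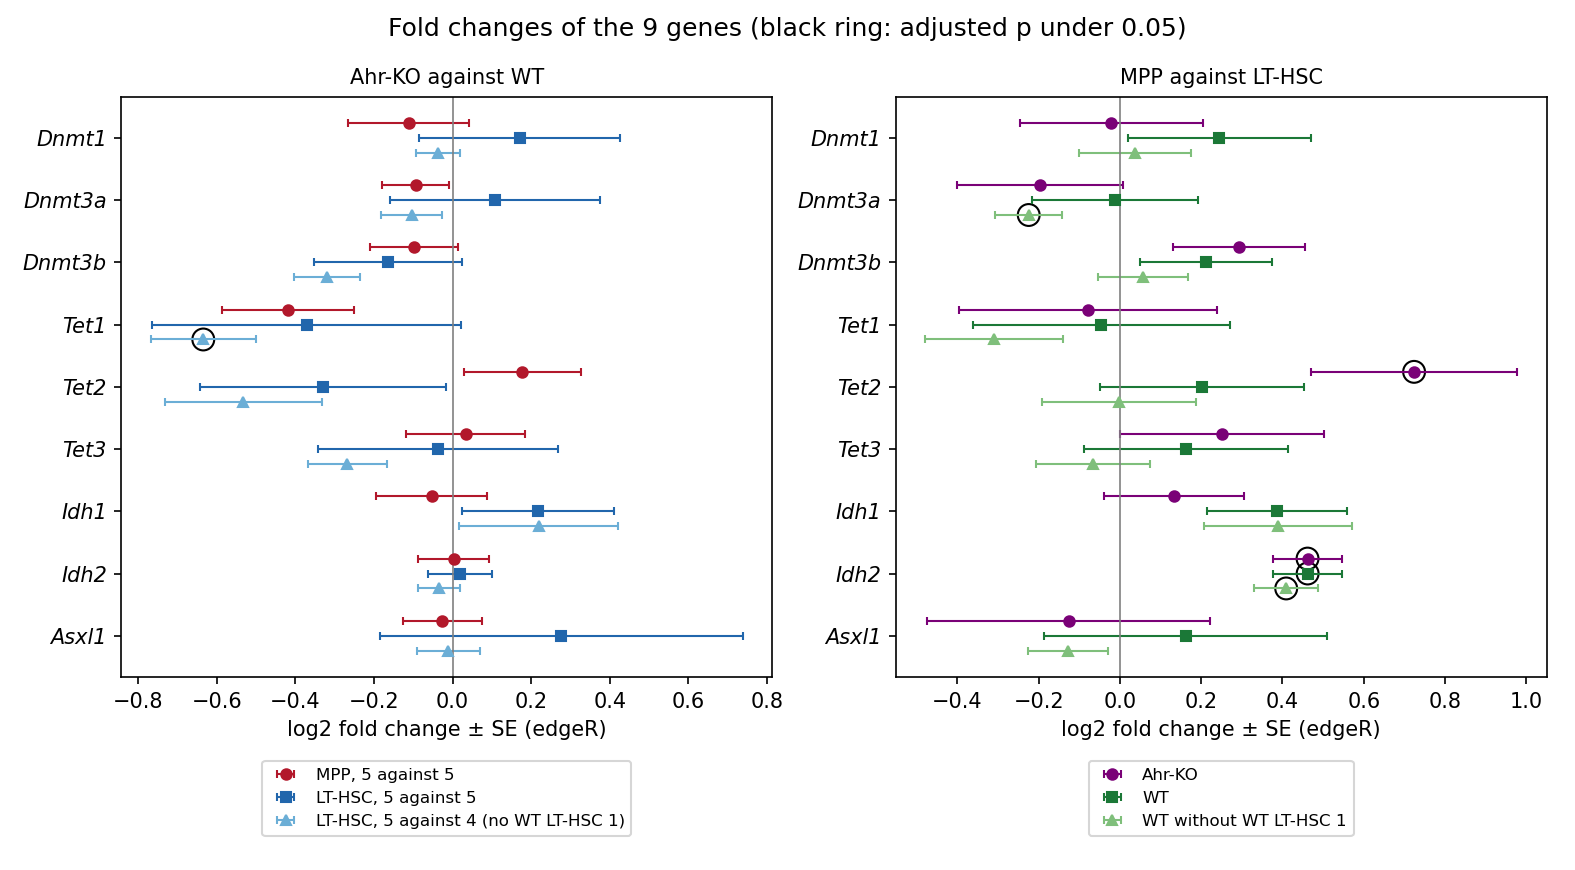
Log2 fold changes with their SE (x) of the 9 genes (y) for Ahr-KO against WT (left) and MPP against LT-HSC (right), with and without WT LT-HSC 1. Rings mark adjusted p under 0.05: Tet1 at -0.63 on the left without that library, and Idh2 at 0.46, Tet2 at 0.72 and, without that library, Dnmt3a at -0.22 and Idh2 at 0.41 on the right.

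WT LT-HSC 1 carried much of the spread of these genes. Asxl1 had 10.3 CPM there, 9.63% of the median of the other 4 WT LT-HSC libraries. Tet1 was at 16.7% of that median, Tet3 at 25.9%, Dnmt3a at 32.0%, Dnmt1 at 32.4%, Tet2 at 34.0% and Dnmt3b at 49.6%. Idh2, at 82.1%, and Idh1, at 101%, whose exon lengths are the shortest of the 9 genes at 2588 and 2771 bases, were closest to it. Over all genes the median log2 ratio of this library to the others was 0.27 for exon lengths of 1000 to 3000 bases, -0.71 for 7000 to 10000 and -1.15 over 10000. For Asxl1 3.64% of all genes tested had a lower ratio, and for Tet1 7.42%.

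**Figure D5:**
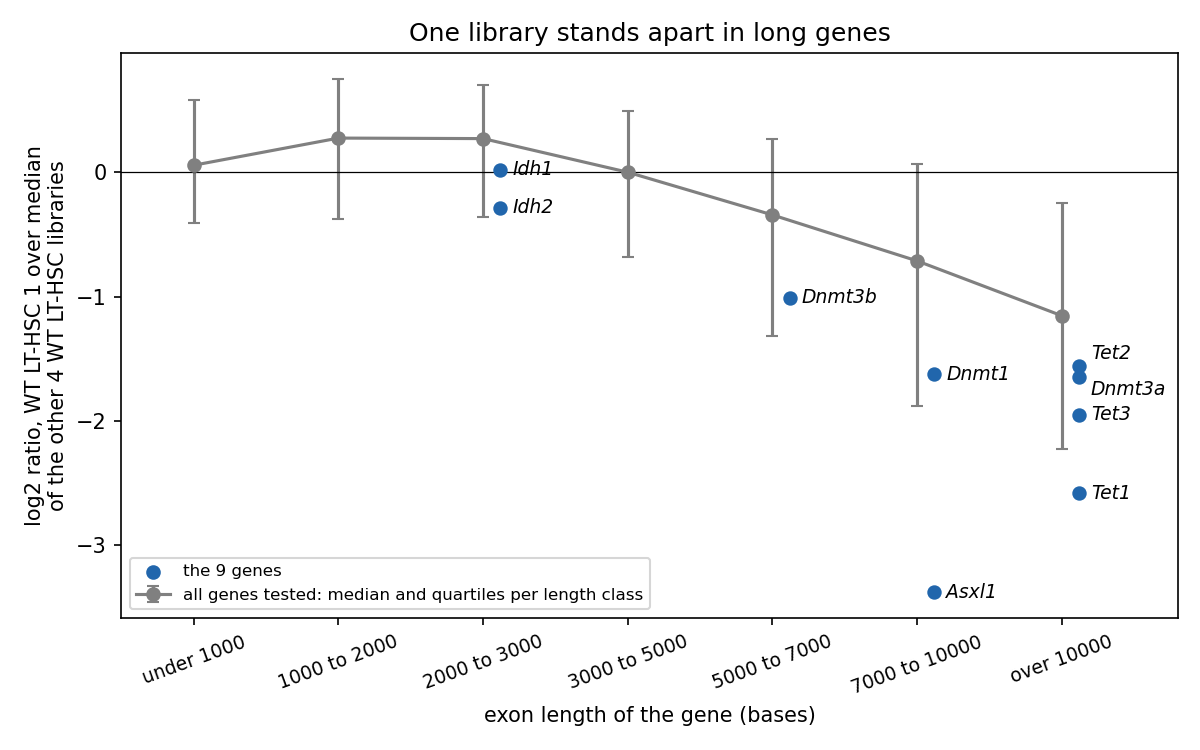
Log2 ratio of WT LT-HSC 1 to the median of the other 4 WT LT-HSC libraries (y) by exon length (x), with the median and quartiles of all genes tested in grey and the 9 genes in blue. The median is 0.27 in the classes from 1000 to 3000 bases and -1.15 over 10000 bases, and 7 of the 9 genes lie at -1.01 or lower.

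The genes whose pattern over the 20 libraries was most like each of the 9, by the root mean square difference of centred log2 CPM among 10610 genes, were found for description. Idh2 was closest to Xrcc1, a scaffold of base excision repair (0.09), and Slc44a2 (0.10). Tet2 was closest to Atf4, a stress-response transcription factor (0.21), and Skiv2l (0.24), and Tet1 to Eea1, an early endosome protein (0.21), and Trappc8 (0.23). For the others they included Ipo5 and Smarcc1 (Dnmt1), Rnf216 and Sdad1 (Dnmt3a), Bclaf1 and Mau2 (Dnmt3b), Pds5a (Tet3), Ubac1 and Atp6ap1 (Idh1), and Rreb1 and Traf3 (Asxl1), at 0.11 to 0.19. Without WT LT-HSC 1, 4 of the 18 genes found were still among the 2 nearest to their gene, namely Bclaf1, Eea1, Atf4 and Ubac1.

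Other genes of the pathway were called in both directions between MPP and LT-HSC, and the counts are to be read beside the 23.2% of all genes called in Ahr-KO and 22.3% in WT. No list was tested against other genes. Of 15 tested genes that maintain or read methylation, 2 were called higher and 3 lower in Ahr-KO MPP, and 3 higher and 3 lower in WT MPP. Hells, a chromatin remodeller needed for methylation of repeats, was higher by 0.52 ± 0.09 in Ahr-KO and by 0.43 ± 0.09 in WT (log2, SE, edgeR, adjusted p = 0.000255 and 0.00173). Cxxc5, which binds unmethylated CG pairs, was lower, at -0.58 ± 0.12 in Ahr-KO and -0.63 ± 0.12 in WT (adjusted p = 0.00175 and 0.00103). Mbd4, a glycosylase, had 0.84 ± 0.17 in Ahr-KO (adjusted p = 0.000912), and Zbtb38, a methyl-CG binding protein, had -0.74 ± 0.16 in WT (adjusted p = 0.00243). The median log2 fold change of this list was 0.05 in Ahr-KO and -0.01 in WT, beside 0.01 over all genes tested in each.

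Of 14 tested genes of demethylation and base excision repair, 4 were called higher and 1 lower in Ahr-KO MPP, and 5 higher and 1 lower in WT MPP, with list medians of 0.18 and 0.24. Tdg, the glycosylase that removes oxidised methylcytosine, rose by 0.40 ± 0.08 in Ahr-KO and by 0.43 ± 0.08 in WT (log2, SE, edgeR, adjusted p = 0.00132 and 0.000803). Xrcc1 rose by 0.38 ± 0.08 and by 0.44 ± 0.08 (adjusted p = 0.00142 and 0.000405). Neil3, another glycosylase, had 1.21 ± 0.23 in Ahr-KO (adjusted p = 0.00058), and Gadd45g, a stress-inducible gene, had -1.56 ± 0.30 in WT (adjusted p = 0.000848).

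Of 17 tested genes of the methyl donor cycle, which supplies S-adenosylmethionine, 6 were called higher and 2 lower in Ahr-KO MPP, and 7 higher and 2 lower in WT MPP, with medians of 0.16 and 0.28. Mat2a, the enzyme that makes S-adenosylmethionine, had 0.49 ± 0.10 in Ahr-KO (edgeR, adjusted p = 0.000896), and Shmt2, the mitochondrial serine hydroxymethyltransferase, had 0.37 ± 0.08 in WT (adjusted p = 0.00134). Ahcyl2, a relative of the enzyme that clears S-adenosylhomocysteine, was lower in Ahr-KO (-0.75 ± 0.17, adjusted p = 0.00332), and Mtap, of methionine salvage, was lower in WT (-0.41 ± 0.11, adjusted p = 0.0103). Of 20 tested genes of 2-oxoglutarate metabolism, 0 were called higher and 1 lower in Ahr-KO, and 2 higher and 1 lower in WT, with medians of 0.01 and 0.06. The lower gene was Aco1, cytosolic aconitase, at -0.35 ± 0.11 in Ahr-KO and -0.41 ± 0.11 in WT (adjusted p = 0.0239 and 0.0105). Fumarase, Fh1, had 0.33 ± 0.08 in WT (adjusted p = 0.00587).

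Of 20 genes of the ASXL1 and Polycomb complexes, 4 were called higher and 1 lower in Ahr-KO MPP, and 3 higher and 3 lower in WT MPP, with medians of 0.02 and -0.10. Ezh2, the histone H3 methyltransferase of Polycomb complex 2, rose by 0.81 ± 0.10 in Ahr-KO and by 0.82 ± 0.10 in WT (log2, SE, edgeR, adjusted p = 6.10e-06 and 5.56e-06). Ogt, which adds GlcNAc to proteins and binds TET enzymes, had 1.40 ± 0.24 in Ahr-KO and 0.79 ± 0.24 in WT (adjusted p = 0.000313 and 0.0234). Rnf2, a ubiquitin ligase of Polycomb complex 1, was lower in WT (-0.38 ± 0.08, adjusted p = 0.00109). Of 5 tested relatives of the 9 genes, Idh3g, a subunit of the NAD-dependent isocitrate dehydrogenase, was the single gene called, at 0.28 ± 0.10 in Ahr-KO and 0.39 ± 0.10 in WT (adjusted p = 0.0448 and 0.00676). 

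Between Ahr-KO and WT, edgeR called 0 genes of these 6 lists in MPP and 0 in LT-HSC. At an unadjusted p under 0.05 there was 1 gene each of the methyl donor and Polycomb lists in MPP. In LT-HSC there were 3 genes each of the demethylation and Polycomb lists, 2 of 2-oxoglutarate metabolism and 1 of maintenance and reading. These counts are to be read beside the shares of all genes tested with such a p, 6.62% in MPP and 8.85% in LT-HSC. The genes with the smallest p of their list in MPP were Idh3g (log2 fold change -0.12 ± 0.09), Zbtb38 (-0.23 ± 0.14), Gadd45b (0.36 ± 0.20), Mat2a (0.28 ± 0.10), Mdh1 (-0.16 ± 0.09) and Foxk2 (0.37 ± 0.12), at adjusted p of 0.614 or more. In LT-HSC they included Trdmt1 (-0.25 ± 0.24), Zbtb38 (-0.41 ± 0.16), Smug1 (-0.39 ± 0.15), Mat2b (-0.32 ± 0.15) and Cbx8 (-0.49 ± 0.18), at adjusted p of 0.509 or more. Cbx8, a Polycomb chromobox protein, was the single one of these results whose Ahr-KO and WT libraries did not overlap. In LT-HSC the groups did not overlap for 3.64% of all genes tested. Without WT LT-HSC 1, Ogt and Cbx7 were among the genes of these lists called lower in Ahr-KO LT-HSC, at -0.66 ± 0.11 and -0.74 ± 0.15 (adjusted p = 0.0176 and 0.0434). That comparison called 1.24% of all genes tested, 0.814% as lower. Long genes as a whole read lower in Ahr-KO there, and the part of this in the Ogt and Cbx7 values was not tested.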

How the data were processed

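RNA from 20 sorted libraries was measured with an unstranded poly(A) TruSeq kit, per the labels' protocols, which also speak of DC samples, 3 per group, unlike this series. The deposited values are whole-number counts per gene symbol, made by the authors. The tools were STAR 2.5.2b, Trimmomatic 0.36, DESeq2 1.12.4 and featureCounts of Subread 1.5.0p3, with build GRCm38.p5, per the submitters' processing notes. The annotation and settings are not stated there. Without strand, reads of antisense genes cannot be told apart from those of Asxl1, Dnmt3a and Tet2, whose exons they overlap by 2.65%, 0.799% and 0.255%.

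Comparisons used edgeR 4.0.16 in R 4.3.3 (filterByExpr, TMM, and a robust two-sided quasi-likelihood test), adjusted by Benjamini-Hochberg over every gene tested. Ahr-KO against WT was fitted on the 10 libraries of a population. MPP against LT-HSC, and the difference of effects, were fitted on all 20. SEs were taken from the F statistic (log2 fold change over its root). The 2 comparisons of populations and the difference of effects share libraries with the others. The procedure was tested on simulated counts with the same spread between libraries for every gene and no library that lost long genes. That test therefore does not cover a library such as WT LT-HSC 1. Positions and exon lengths are from GENCODE M21 (GRCm38), and promoters from RefSeq.

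The 9 genes and the lists were chosen with earlier results of these data known. Named beside the 9 genes were up to 3 called genes of each list with the smallest p, or, for lists without a call, the top 1 by p, and the 2 genes nearest in pattern to each of the 9. Among these, predicted genes were left out and a mean of 5 CPM was required. Ogt and Cbx7 were named as called genes of the 6 lists in the comparison without WT LT-HSC 1. A few genes that these rules name are not reported here. DESeq2 1.42.0 and limma 3.58.1 were alternatives. The biological coefficient of variation, common to all genes, was 29.2% in MPP, 32.5% in LT-HSC and 33.8% over all libraries. No 2 libraries of a group agreed within sampling noise.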

Additional observations from a re-analysis of the deposited data

Results flagged for a closer look

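Single libraries stood far from the other 4 of their group in 6 of 36 combinations of gene and group checked. Chance gives about 1 in 20 for a single check. Genes of the same library are not independent checks, so that rate cannot be set against the number found. In WT LT-HSC 1, Dnmt1 had 195 CPM, Dnmt3a 45.2 CPM, Dnmt3b 67.0 CPM and Asxl1 10.3 CPM, each below the nearest other library at 532, 129, 133 and 100.0 CPM. Asxl1 had 115 CPM in Ahr-KO MPP 5, above the nearest at 94.3 CPM, and 80.4 CPM in WT MPP 5, below the nearest at 98.8 CPM. The correlation of a library's deviations with exon length, across genes, was -0.29 in WT LT-HSC 1, 0.27 in Ahr-KO MPP 5 and -0.28 in WT MPP 5, and the exon length of Asxl1 is 7444 bases. The part of this length dependence in the single values was not tested.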

How the results depend on the processing

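The Idh2 difference between populations was called in 19 of 20 alternatives in each genotype, with log2 fold changes of 0.39 to 0.50 in Ahr-KO and 0.36 to 0.49 in WT, and the exception was the replicate block (0.41, adjusted p = 0.0921 in Ahr-KO, 0.49, adjusted p = 0.0962 in WT). The 0 calls between Ahr-KO and WT held in every alternative in MPP, and in LT-HSC in all but leaving out WT LT-HSC 1, which called Tet1. With single libraries left out, the calls were 0 to 1 for Ahr-KO against WT in LT-HSC, and 1 to 2 in each genotype for MPP against LT-HSC. In WT the calls were 2 with the 10 WT libraries alone and 2 without WT LT-HSC 1 and Ahr-KO LT-HSC 2 and 3 (Idh1 and Idh2). In Ahr-KO the calls ranged over 0 to 3: 1 with no filter on low counts, and 3 with voom (Dnmt3b added), with the exon length correction (Tet3 added) and without those 3 libraries (Idh1 added). The shares of all genes called in these fits are not reported here, so a larger count need not be particular to the 9 genes. The labels do not say whether same-numbered libraries share an animal. Correlations of same-numbered libraries were -0.18 to 0.18, which cannot exclude such pairing. With the replicate block 0 of the 9 genes were called in any comparison. That fit of Ahr-KO against WT in LT-HSC has numbers 1 and 4 alone. Leaving out Ahr-KO LT-HSC 2 and 3 was listed with the marker levels known, and the length correction and the omission of 3 libraries were added after the data were seen. Of 981 single values, 98 changed sign and none of those was called in the original setting. Outside single omissions these were, on the log2 scale, voom with sample quality weights (Dnmt1 -0.0188, Dnmt3a -0.0626 and Idh2 -0.0282 for Ahr-KO against WT in LT-HSC, Dnmt3b -0.00675, Tet2 -0.0498, Tet3 -0.0447 and Asxl1 -0.0753 for MPP against LT-HSC in WT, Tet1 0.10 and Idh2 0.0829 for the difference of effects), without WT LT-HSC 1 and Ahr-KO LT-HSC 2 and 3 (Dnmt1 -0.0457, Dnmt3a -0.10, Idh1 -0.15, Idh2 -0.0143 and Asxl1 -0.0216 for Ahr-KO against WT in LT-HSC, Tet2 -0.00328, Tet3 -0.0674 and Asxl1 -0.13 for MPP against LT-HSC in WT, Dnmt3a 0.0124, Tet1 0.17, Idh1 0.0925 and Idh2 0.0165 for the difference of effects), replicate block (Dnmt3b 0.37, Tet1 0.75, Tet2 0.43, Tet3 0.66 and Idh1 -0.0152 for Ahr-KO against WT in LT-HSC, Dnmt3a 0.29 and Tet1 0.12 for MPP against LT-HSC in WT, Dnmt3b -0.24 and Tet3 -0.23 for the difference of effects), without the Ahr-KO LT-HSC libraries 2 and 3 (Tet3 0.0129 and Idh1 -0.15 for Ahr-KO against WT in LT-HSC, Dnmt3b -0.0457 and Idh1 0.0851 for the difference of effects), exon length correction (Tet3 0.0234 for Ahr-KO against WT in LT-HSC, Idh2 -0.0135 and Asxl1 0.00912 for Ahr-KO against WT in MPP, Dnmt3a 0.094 and Tet1 0.11 for MPP against LT-HSC in WT, Dnmt1 0.0254 and Tet1 0.0713 for MPP against LT-HSC in Ahr-KO), exon length correction without WT LT-HSC 1 (Idh2 -0.0575 for Ahr-KO against WT in LT-HSC, Dnmt3a 0.0328 and Asxl1 -0.00749 for MPP against LT-HSC in WT, Tet1 0.15 and Idh2 0.0432 for the difference of effects), DESeq2 size factors in edgeR (Idh2 0.0123 for the difference of effects), at least 5 CPM in at least 5 libraries (Idh2 0.0124 for the difference of effects), DESeq2 Wald test (Idh2 0.0124 for the difference of effects). Ranges over single omissions that cross 0 were Dnmt1 -0.0373 to 0.25, Dnmt3a -0.10 to 0.21, Tet3 -0.27 to 0.0719, Idh2 -0.0349 to 0.0408 and Asxl1 -0.0109 to 0.38 for Ahr-KO against WT in LT-HSC, Tet3 -0.0347 to 0.16, Idh1 -0.18 to 0.0257, Idh2 -0.0393 to 0.069 and Asxl1 -0.0942 to 0.0123 for Ahr-KO against WT in MPP, Dnmt3a -0.22 to 0.0739, Tet1 -0.31 to 0.10, Tet2 -0.00243 to 0.29, Tet3 -0.0664 to 0.26 and Asxl1 -0.13 to 0.25 for MPP against LT-HSC in WT, Dnmt1 -0.18 to 0.027 and Idh1 -0.0268 to 0.26 for MPP against LT-HSC in Ahr-KO, Dnmt3a -0.31 to 0.027, Dnmt3b -0.0117 to 0.24, Tet1 -0.21 to 0.23, Tet3 -0.0406 to 0.32, Idh2 -0.0651 to 0.0612 and Asxl1 -0.41 to 0.000164 for the difference of effects. The causes were not tested. Each of the 9 genes had at least 217 counts in each library. The parts of depth and of the spread between libraries in the errors were not tested.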
